A study of Mus musculus with 8 samples.

Results

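Expression of 7 genes of the Ly6 family, Ly6a, Ly6c1, Ly6c2, Ly6d, Ly6e, Ly6g and Ly6i, was examined across cell lineages of mouse organ allografts and recipient blood. The genes were chosen by name, and all 7 of the 24405 genes listed over the 8 count tables had a row in every table. Single cells were profiled with Microwell-seq, which captures cells with barcoded beads in a microwell array and counts mRNA molecules at their 3′ ends by unique molecular identifiers (UMIs). Heart, liver or kidney grafts of BALB/c mice had been placed in C57BL/6 recipients that received no immunosuppression, and grafts and blood were taken on day 7. The 8 libraries were peripheral blood mononuclear cells (PBMC) of heart, liver and kidney recipients, tissue-infiltrating lymphocytes (TIL) of the 3 organs, and parenchymal cells (PC) of kidney and liver. The labels all give male BALB/c mice of 8 weeks, although the recipients were C57BL/6, so the label does not separate donor from recipient cells. Cell classes may differ in their share of donor and recipient cells, and the part of strain in differences between classes was not tested. There was 1 library per organ and compartment and all mice were transplanted, so no untreated control and no organ contrast was available, and blood and graft libraries of an organ came from the same recipients.

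Ly6 proteins are small surface proteins that are held in the membrane by a glycolipid anchor and share a cysteine-rich, finger-like fold. Several are standard flow cytometry antigens: Ly6a is Sca-1, an interferon-inducible marker of stem cells and activated lymphocytes, Ly6c2 encodes most of the Ly6C of inflammatory monocytes and memory CD8 T cells, and Ly6g marks mature neutrophils. Ly6c1 is known from endothelium, Ly6d from B-lineage progenitors, and Ly6e is a broadly expressed, interferon-inducible member. Ly6i is a close relative of Ly6a and Ly6c whose role is less well described.

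The 7 genes form 1 cluster on chromosome 15 of GRCm38 (GENCODE vM21 annotation), all protein coding. In order along the chromosome, Ly6d lies at 74762056 to 74763620, Ly6e at 74955051 to 74959905, Ly6i at 74979534 to 74983430 and Ly6a at 74994877 to 74998031. Ly6c1 follows at 75044018 to 75048830, Ly6c2 at 75108158 to 75111970 and Ly6g at 75155240 to 75159126. Ly6e and Ly6g lie on the plus strand and the other 5 genes on the minus strand.

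Stretches at the starts of Ly6c1, Ly6c2 and Ly6g are shown because these 3 neighbours are alike in sequence and, as described below, were highest in 3 different cell classes. They come from RefSeq promoter windows of GRCm38.p6, which held 3 of the 7 members, and run 5′ to 3′ on the strand of the gene, from a shared CTGCTATA to a shared AAAGTA. The last 55 of the 137 bases of Ly6g lie inside the annotated gene and are not printed, so all bases shown lie outside the genes. Positions shown are chr15:75048842-75048984 (minus strand) for Ly6c1, chr15:75112006-75112127 (minus strand) for Ly6c2 and chr15:75155158-75155239 (plus strand) for Ly6g. Capitals mark GAGGAAGT, a sequence of the kind bound by ETS factors, which was chosen after the sequences were seen.
Ly6c1: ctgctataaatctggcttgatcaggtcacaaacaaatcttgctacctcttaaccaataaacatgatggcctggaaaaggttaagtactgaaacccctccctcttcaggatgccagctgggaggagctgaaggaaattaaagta
Ly6c2: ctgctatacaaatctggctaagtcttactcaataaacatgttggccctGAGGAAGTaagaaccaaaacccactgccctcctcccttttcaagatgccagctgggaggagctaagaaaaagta
Ly6g: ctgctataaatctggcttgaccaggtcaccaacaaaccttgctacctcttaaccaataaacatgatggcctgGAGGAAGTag
Ly6c1 and Ly6g were 87.4% identical over the whole stretch between these marks (125 of 143 aligned columns), Ly6c2 and Ly6g 65.2%, and Ly6c1 and Ly6c2 64.1%. GAGGAAGT, searched on both strands, was found once in the stretch of Ly6c2 and once in that of Ly6g, and these letters were not in the stretch of Ly6c1. Since the letters were chosen after the sequences were seen, this pattern is no test. The whole windows of 300 bases held 0 matches for Ly6c1, 2 for Ly6c2 and 1 for Ly6g. RefSeq windows of other listed starts held 1, 2 and 2. Of all 32851 RefSeq promoter windows of 300 bases, which are longer than the stretches, 3.2% held GAGGAAGT. A match is a description of letters and not a binding site. Near their 3′ ends, where reads were counted, the genes also overlap in sequence. Of windows of 50 bases in the last 400 bases of annotated transcripts, 35.39% of those of Ly6c2 and 29.42% of those of Ly6c1 occurred in another gene, among them each other and Ly6a, against 9.27% for Ly6a, 3.18% for Ly6i, 0.31% for Ly6g and none for Ly6d and Ly6e. Because the authors discarded reads with several alignments, levels of Ly6c1 and Ly6c2 may be too low, and their size cannot be compared with that of other genes.

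Cells with at least 500 UMIs were kept, which left 47542 of 80000 barcodes, between 795 (kidney PC) and 10000 (liver PC) per library. Library totals lay between 3418722 and 19171264 UMIs, again lowest in kidney PC and highest in liver PC. Each class was defined by genes other than Ly6 genes: T cells by at least 2 UMIs of Cd3d, Cd3e and Cd3g, B cells by 2 of Cd79a and Cd79b, NK cells by 2 of Ncr1, Klrb1c, Klra4 and Klra8 with no Cd3 UMI, monocytes by 5 of Chil3, macrophages by 5 of C1qa, C1qb and C1qc, neutrophils by 1 of Csf3r, endothelial cells by 2 of Cdh5, Egfl7, Kdr, Cldn5 and Tie1, and stromal cells by 5 of Dcn, Col3a1, Col1a1 and Col1a2. Cells that passed exactly 1 gate numbered 25101, of which 11281 were T, 341 B, 314 NK, 2979 monocyte, 4195 macrophage, 5821 neutrophil, 51 endothelial and 119 stromal cells. Another 10076 cells (21.19%) passed several gates and entered no class. A class was used in a library where it held at least 20 cells, and its UMIs were summed. In every class used, at least 5 of 6 markers outside the gate were detected. Neutrophil markers were however detected in all blood classes: the summed level of 6 neutrophil markers was 17920 to 96050 CPM (UMIs of a gene scaled by all UMIs of the class) in T cells of PBMC, against 54.18 to 5140 in T cells of TIL, and it reached 173200 in the Chil3 gate of heart PBMC against 221800 in its Csf3r gate. Markers of the class itself stood at 4268 to 4990 CPM in T cells of PBMC, 3516 and 4067 in B cells and 14540 to 22060 in NK cells, below the neutrophil markers in each of these classes and blood libraries. T, B and NK cells are therefore, like the others, names of gates, and the myeloid classes are named below by their gate genes. The library labelled liver TIL carried erythroid RNA at 23780 to 64860 CPM in its 7 classes. The libraries labelled heart TIL and liver TIL go against their labels, since the first held 1056 UMIs of the hepatocyte gene Alb and none of the cardiomyocyte gene Myh6, while the second held 0 of Alb and 10 of Myh6, with 397 of Tnnt2. They are called here by their labels, and pairs of libraries shared from 123 to 617 barcodes.

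The classes were ranked by level for each member. Over all cells kept, the values rest on 139392 UMIs of Ly6e, 107495 of Ly6a, 92032 of Ly6c2, 26609 of Ly6i, 3936 of Ly6d, 3436 of Ly6g and 1030 of Ly6c1, which are counting depths and not compared as levels, since reads of Ly6c1 and Ly6c2 in particular may have been discarded. Ranked by the median CPM over libraries, Ly6c1 was highest in endothelial cells, Ly6c2 in Chil3-gated cells, Ly6d in B cells, Ly6g in Csf3r-gated cells, Ly6e in B cells, Ly6i in Chil3-gated cells and Ly6a in stromal cells, the last from 1 library. Under 4 other choices of gates and cells this top class was kept in all 4 by Ly6c2, Ly6d and Ly6g, and changed in at least 1 for Ly6a, Ly6e and Ly6i. For Ly6c1 only 1 of the 4, overlapping gates, held enough endothelial cells, which stayed highest there. With overlapping gates the median of Ly6a in stromal cells was 1888 CPM over 3 libraries, below endothelial and C1q-gated cells, and that of Ly6c1 in endothelial cells was 378.9 in place of 1468 CPM. Ranges over libraries overlapped in 44 of 49 neighbouring pairs of these orders. Such ranges ignore that classes share libraries: those of Ly6c2 in Chil3-gated and T cells overlapped, yet the difference passed the test within libraries described below. The 5 that did not overlap were stromal over B cells for Ly6c1, B over Csf3r-gated and C1q-gated over endothelial cells for Ly6d, T over stromal cells for Ly6e, and endothelial over stromal cells for Ly6i, and stromal cells were a single library in 3 of these. The endothelial value of Ly6d is a count of 0 whose limits of 192 and 166.4 CPM lie above the C1q-gated values of 10.08 to 26.96, so that pair is not told apart. Counting error also covers the gap for Ly6e, at 1524 CPM (1280 to 1802, exact 95% Poisson interval) in stromal cells against a lowest T cell value of 1645. It does so for Ly6i in labelled liver TIL, at 443.8 CPM (191.6 to 874.5, 8 UMIs) in endothelial and 322.7 (216.1 to 463.4) in stromal cells. Differences between classes were tested with edgeR on the summed counts with the library as a block, and p-values were adjusted over all genes tested. Since libraries of an organ share recipients, they measure the spread between libraries.

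**Figure D1:**
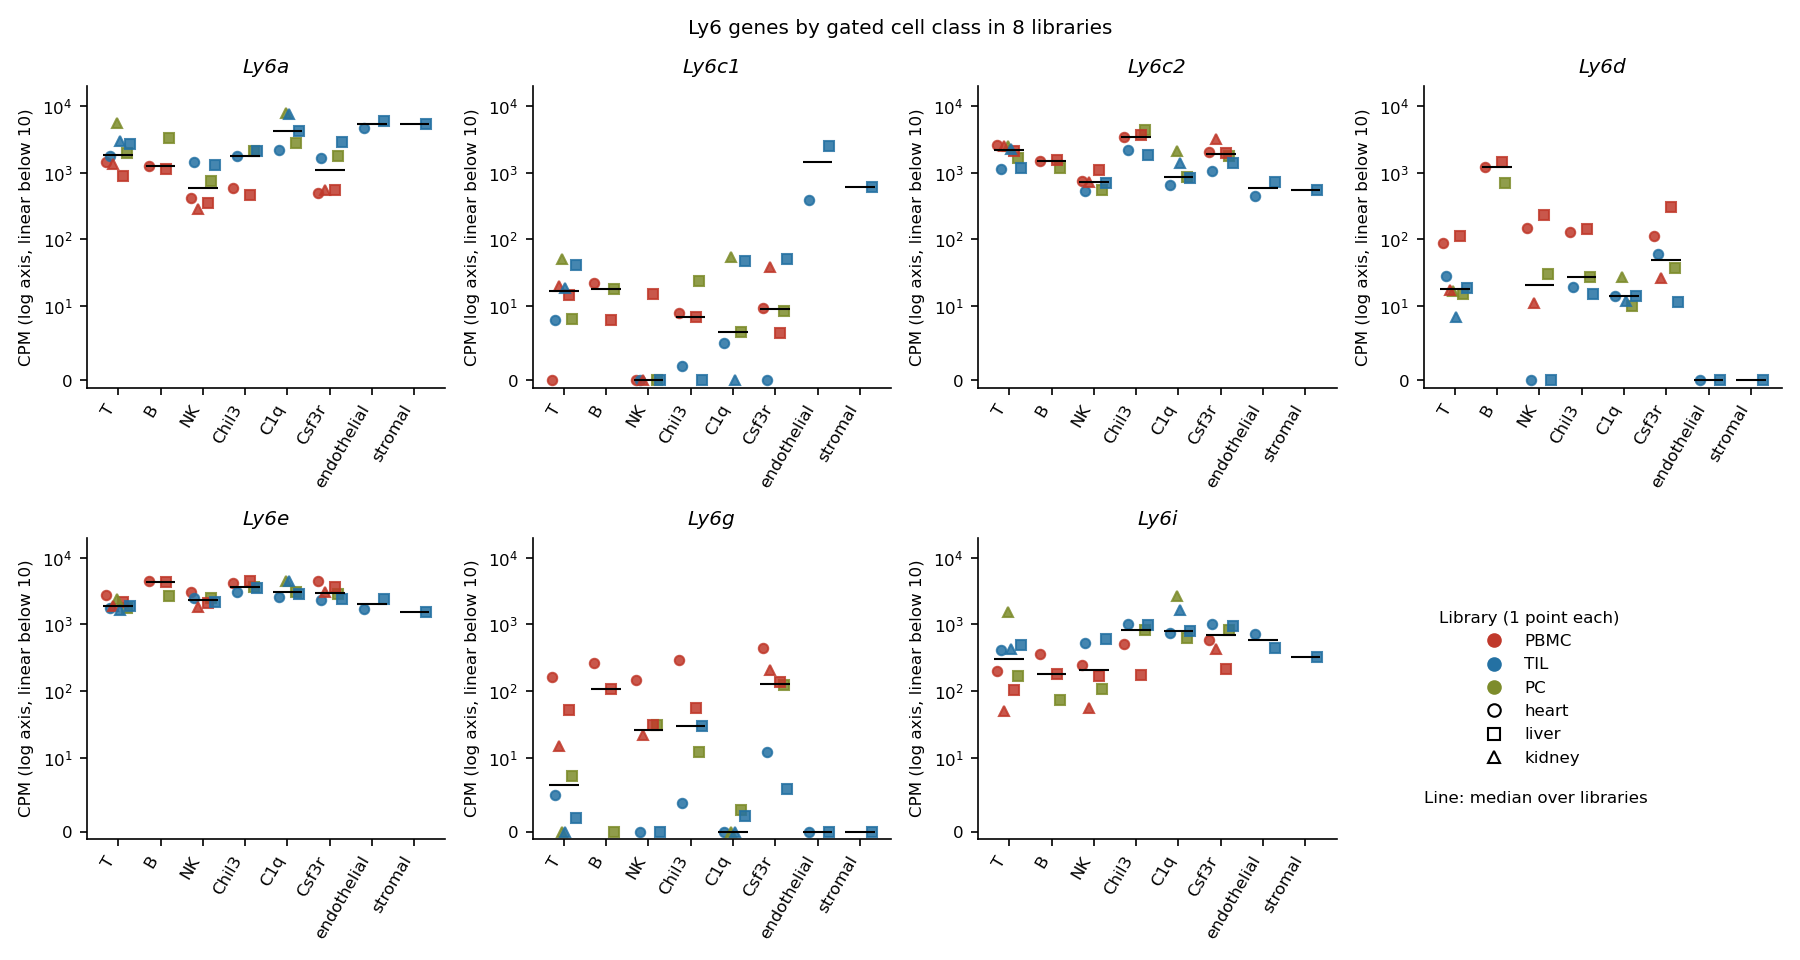
CPM of each Ly6 gene (vertical axis, log scale, linear below 10) in the 8 gated classes, 1 point per library, with colours for the compartment, shapes for the organ by label and lines for the median over libraries. Ly6d stands at 709.8 to 1453 CPM in B cells and Ly6c1 at 383.9 to 2552 CPM in endothelial cells, while Ly6e stays between 1524 and 4501 CPM in all classes.

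Ly6c2 separated Chil3-gated from C1q-gated cells, and Ly6a ran the other way. In Chil3-gated cells Ly6c2 stood at 3451 CPM in heart PBMC, 3662 in liver PBMC, 4398 in liver PC, 2165 in labelled heart TIL and 1816 in labelled liver TIL. In C1q-gated cells it stood at 862.5 CPM in liver PC, 647.8 in labelled heart TIL, 830.9 in labelled liver TIL, 2103 in kidney PC and 1388 in kidney TIL. In all 3 libraries that held both classes the Chil3-gated cells were higher, although the ranges over libraries overlapped through kidney PC. The log2 difference was 1.66 ± 0.17 (SE, 3.15-fold, adjusted p = 8.61e-10). Ly6a was lower in Chil3-gated cells by a log2 of -0.82 ± 0.19 (1.77-fold, adjusted p = 0.00304), also in 3 of 3 libraries. Its levels were 471.1 to 2131 CPM in Chil3-gated and 2164 to 8007 CPM in C1q-gated cells, without overlap by value. The highest Chil3-gated value (labelled liver TIL) lay inside the Poisson interval of the lowest C1q-gated value, 2082 to 2249 CPM in labelled heart TIL. That gap was therefore within counting error. The call for Ly6a was lost when cells passing several gates were counted (log2 -0.52, adjusted p = 0.286). Ly6g was called as well, at 3.908, 11.93 and 30.01 CPM in the Chil3-gated cells of the 3 shared libraries against 0 to 2.88 in all C1q-gated cells, the latter from 8 UMIs, so the fitted log2 of 2.52 ± 0.63 (adjusted p = 0.00585) depends on the prior count of the fit. This call was lost with DESeq2 (adjusted p = 0.127), from 1000 UMIs (0.0649), without labelled heart TIL (0.0501) and without liver PC (0.153). Neutrophil markers moved with it, at 6798 to 19530 CPM in Chil3-gated and 4185 to 4649 CPM in C1q-gated cells of these 3 libraries, and their part was not tested. Of the 7 members 3 passed in this contrast, 2 higher and 1 lower, where 4.9% of all 5941 genes did, and the median log2 difference was 0.50 over the members and -0.02 over all genes. Ly6e (log2 0.14 ± 0.17, adjusted p = 0.81), Ly6i (0.24 ± 0.24, 0.741), Ly6d (1.04 ± 0.35, 0.0783) and Ly6c1 (0.50 ± 0.44, 0.684) did not pass, although Ly6d did in 3 alternatives (lowest adjusted p = 0.0189, from 1000 UMIs) and Ly6c1 with gates doubled (0.000312).

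Cells that passed the Chil3 and the C1q gate and no other were described apart. For Ly6c2 they lay between the single-gate classes, beyond counting error, in 2 of the 3 libraries that had them. In liver PC the level of Ly6c2 was 4398 CPM (4264 to 4536, exact 95% Poisson interval, which covers counting error only) with Chil3 alone, 2001 (1910 to 2094) with both and 862.5 (814.3 to 912.7) with C1q alone. In labelled heart TIL it was 2165 (2039 to 2296), 1026 (918.6 to 1143) and 647.8 CPM (603.1 to 695). In labelled liver TIL the 1676 CPM (1231 to 2229) of 21 cells with both gates was not told apart from the 1816 (1507 to 2169) with Chil3 alone, and both lay above the 830.9 (790.5 to 872.8) with C1q alone. Ly6a did not lie between in the same way. It was 2127, 2993 and 2829 CPM in liver PC, 1790, 2316 and 2164 CPM in labelled heart TIL, and 2131, 3816 and 4173 CPM in labelled liver TIL. Cells with both gates also held more UMIs, with a median of 1947 in liver PC against 1340 with Chil3 alone and 1518 with C1q alone. The medians were 1097 against 766 and 842 in labelled heart TIL, and 1153 against 771 and 795 in labelled liver TIL. Whether such cells are doublets was not tested.

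**Figure D2:**
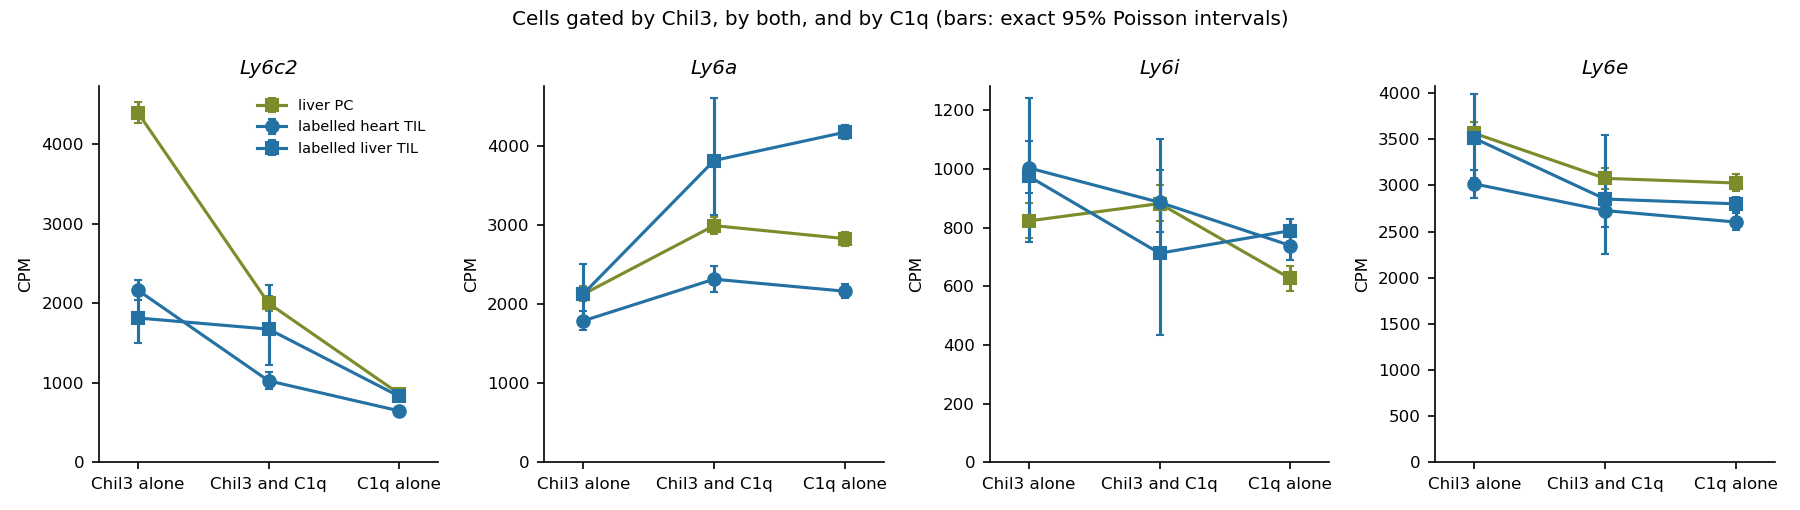
CPM of Ly6c2, Ly6a, Ly6i and Ly6e (vertical axes from 0) in cells gated by Chil3 alone, by Chil3 and C1q, and by C1q alone, for the 3 libraries with at least 20 cells of each, with exact 95% Poisson intervals. Ly6c2 falls from left to right, from 4398 to 862.5 CPM in liver PC, although in labelled liver TIL the first and second intervals overlap, while Ly6a is lowest with Chil3 alone.

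Ly6g was highest in Csf3r-gated cells and Ly6d in B cells, and both were also found in other classes. In Csf3r-gated cells Ly6g stood at 438.4 CPM in heart PBMC, 207.9 in kidney PBMC, 136.1 in liver PBMC and 122 in liver PC. Only 1 UMI of Ly6g was found in the Csf3r-gated cells of each of labelled heart TIL (11.98 CPM) and labelled liver TIL (5.71 CPM). Against Chil3-gated cells Ly6g was higher by a log2 of 1.56 ± 0.27 (2.96-fold, adjusted p = 3.6e-05), in 4 of 5 libraries. Ly6c2 was lower in Csf3r-gated cells, by -0.65 ± 0.15 (adjusted p = 0.00168) and in 5 of 5 libraries. Ly6d was higher by 0.85 ± 0.25 (adjusted p = 0.0132), in 3 of 5 libraries, and lost its call in 6 of 16 alternatives, such as without liver PBMC (log2 0.45, adjusted p = 0.44). The other 4 members did not pass, and 15.7% of all genes did in this contrast.

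Relative to the neutrophil markers, Ly6g had overlapping intervals across the classes of heart PBMC and across those of liver PBMC. Such overlap does not show equal ratios, since T, B and NK cells of heart PBMC held 47, 24 and 6 Ly6g UMIs. In heart PBMC there were 1.98 Ly6g UMIs (exact 95% interval 1.85 to 2.11) per 1000 UMIs of the 6 markers in Csf3r-gated cells. The ratio was 1.69 (1.48 to 1.93) in Chil3-gated cells, 1.68 (1.23 to 2.23) in T cells, 1.76 (1.13 to 2.62) in B cells and 1.89 (0.695 to 4.13) in NK cells. In liver PBMC it was 0.873 (0.765 to 0.993) in Csf3r-gated, 0.881 in Chil3-gated, 0.975 in T and 1.22 in B cells. A level of 161 CPM of Ly6g in T cells of heart PBMC stood beside 96050 CPM of neutrophil markers in the same cells. Csf3r-gated cells of TIL held 0.426 (0.0108 to 2.38) and 0.273 (0.00691 to 1.52) per 1000, from 1 UMI each. The second interval lies below the 1.98 (1.85 to 2.11) of heart PBMC and covers the 0.873 of liver PBMC and the 1.35 of kidney PBMC. It lies below the 1.66 of liver PC by value only, since that value rests on 26 Ly6g UMIs with a counting error of its own. Neutrophil markers in Csf3r-gated cells of TIL were at 20930 to 28100 CPM against 153900 to 221800 in blood.

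**Figure D3:**
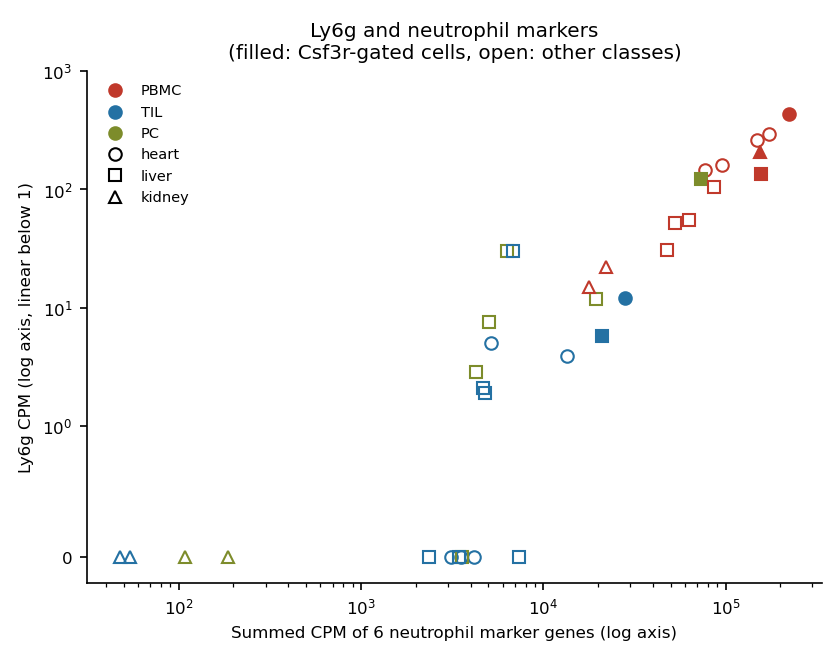
Ly6g CPM (vertical axis, log scale, linear below 1) against the summed CPM of S100a8, S100a9, Retnlg, Cxcr2, Mmp8 and Mmp9 (horizontal log axis), 1 point per class and library, with colours for the compartment and shapes for the organ by label. Filled points are Csf3r-gated cells, and open points of blood classes such as T cells of heart PBMC (161 CPM at 96050) lie near them.

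Ly6d was at 1227 CPM in B cells of heart PBMC, 1453 in liver PBMC and 709.8 in liver PC, the 3 libraries with at least 20 B cells. T cells held 8.554 to 110.8 CPM in 8 libraries, below every B cell value. The log2 difference of T minus B cells was -4.16 ± 0.28 (17.9-fold, adjusted p = 1.91e-16), in 3 of 3 libraries with both, and it passed in all 16 alternatives run for it. With the gate doubled, which left 2 libraries, Ly6d in B cells was 1967 and 2139 CPM. Neutrophil markers stood at 86530 to 149400 CPM in the B cells of blood. Outside B cells the ratio of Ly6d to B cell markers differed between libraries. In heart PBMC Ly6d held 282 UMIs (243 to 325) per 1000 UMIs of 6 B cell markers in Csf3r-gated cells, 272 (216 to 339) in Chil3-gated cells and 349 (279 to 434) in B cells. In T cells it was 250 in heart PBMC, 38.9 (31.2 to 47.9) in labelled heart TIL and 31.3 (25.5 to 38) in liver PC, whose B cells held 37.3. The part of RNA from other cells in these levels was not tested. Endothelial and stromal cells held 0 UMIs of Ly6d and of Ly6g. For Ly6d this allows up to 192 CPM in endothelial cells of labelled heart TIL, 166.4 in those of labelled liver TIL and 33.38 in stromal cells.

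Among lymphocytes, NK cells stood below T cells for Ly6a and Ly6c2. In NK cells Ly6c2 was 529.9 to 1105 CPM over 6 libraries, against 1132 to 2627 CPM in T cells of 8. The ranges did not overlap by value. The nearest values, 1105 (864.8 to 1392) in liver PBMC and 1132 (1095 to 1169) in labelled heart TIL, were within counting error. The log2 difference was -1.59 ± 0.17 (3-fold, adjusted p = 4.83e-10). Ly6a was 286.8 to 1445 CPM in NK and 900.9 to 5557 CPM in T cells, a log2 difference of -1.54 ± 0.19 (2.91-fold, adjusted p = 2.3e-08). Both were lower in NK cells in 6 of 6 libraries and passed in all alternatives run. Of the 7 members these 2 passed, both lower, while 3.94% of all genes passed and 2.41% were called lower. Ly6e was at 1820 to 3085 CPM in NK cells and 1645 to 2716 CPM in T cells (log2 0.01 ± 0.15, adjusted p = 0.983).

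Within T cells, Ly6c2 was higher in CD8 than in CD4 cells. T cells with a Cd8a or Cd8b1 UMI and no Cd4 UMI were compared with T cells of the opposite kind in the 3 libraries that held at least 20 of each. Ly6c2 was 1735 CPM in CD8 and 857.9 in CD4 T cells of liver PC, 1114 and 682 in labelled heart TIL, and 1252 and 364.2 in labelled liver TIL. The groups did not overlap, and the log2 difference was 1.36 ± 0.27 (2.57-fold, adjusted p = 0.000118). It rested on 106, 21 and 22 CD4 cells, and the call was lost without labelled heart TIL (log2 1.47, adjusted p = 0.0588) or labelled liver TIL (1.20, adjusted p = 1). Of 5 members tested only Ly6c2 passed, while 0.586% of 6309 genes did. Ly6a was lower in CD8 than in CD4 T cells in 3 of 3 libraries, at 1869 against 2663 CPM in liver PC, 1728 against 2203 in labelled heart TIL and 2534 against 3414 in labelled liver TIL. The fitted log2 difference was -0.11 ± 0.23 and did not pass (adjusted p = 0.986), where the median over all genes was 0.17.

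Against T cells, Chil3-gated cells held more of 5 members. Ly6i was 173 to 1004 CPM in Chil3-gated and 49.82 to 1547 CPM in T cells, with a log2 difference of 1.62 ± 0.21 (3.08-fold, adjusted p = 1.37e-08) and the same direction in 5 of 5 libraries. Ly6e was 3017 to 4501 against 1645 to 2716 CPM, without overlap by value (1.10 ± 0.14, adjusted p = 1.04e-08). Poisson intervals of the nearest values overlapped, at 2868 to 3171 CPM in labelled heart TIL and 2530 to 2912 in heart PBMC. Ly6c2 was higher by 1.08 ± 0.15 (adjusted p = 2.25e-08), also in 5 of 5. These 3 calls held in all 16 alternatives. Ly6g (1.26 ± 0.31, adjusted p = 0.000773) and Ly6d (0.62 ± 0.26, adjusted p = 0.0492) passed too, beside the neutrophil markers described above. Ly6g lost its call with DESeq2 (adjusted p = 0.0694) and without heart PBMC (log2 0.93, adjusted p = 0.0727), and Ly6d lost its call or turned in 9 alternatives, with -0.18 (adjusted p = 0.623) under doubled gates. These 5 of 7 members were all higher in Chil3-gated cells, in a contrast where 41% of all genes passed and 21.6% were called higher. Against B cells, T cells were lower in Ly6e by a log2 of -0.81 ± 0.18 (adjusted p = 0.00145), at 2716 against 4392 CPM in heart PBMC, 2156 against 4318 in liver PBMC and 1767 against 2694 in liver PC. This call was lost without liver PBMC (-0.50, adjusted p = 0.337), without a filter on low counts (-0.43, 0.401), from 1000 UMIs (-0.54, 0.552) and with gates doubled (-0.71, 0.134). Neutrophil markers in blood were also higher in B than in T cells, at 149400 against 96050 CPM in heart PBMC and 86530 against 53030 in liver PBMC, and their part was not tested. By edgeR 8.21% of all genes passed between T and B cells and 4.41% were called lower in T cells, and of the 7 members Ly6d and Ly6e passed, both lower, with 5 at an unadjusted p under 0.05. By DESeq2 8.5% of the genes and 3 members passed, with Ly6a added (log2 -0.74, adjusted p = 0.04).

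**Figure D4:**
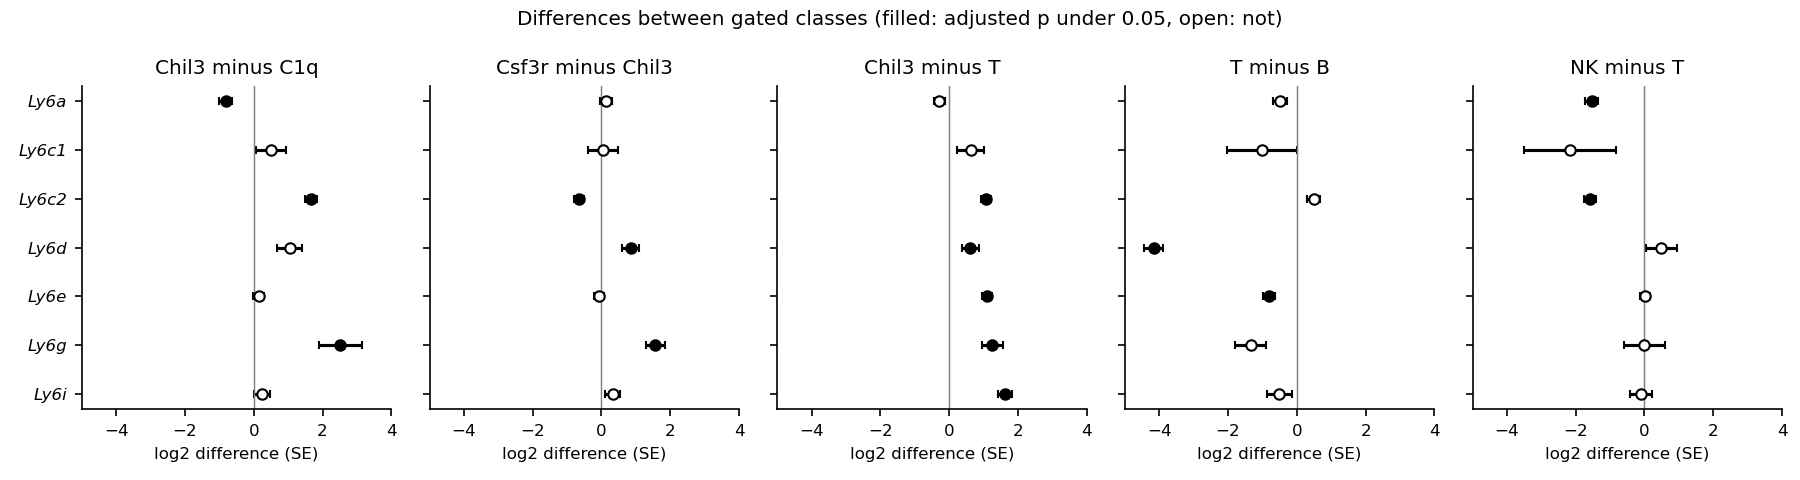
Log2 differences (horizontal axis, with SE bars) of the 7 genes in 5 contrasts between gated classes, fitted with edgeR on sums per library. Filled points passed at an adjusted p under 0.05, among them Ly6c2 in 4 of the 5 contrasts and Ly6d at -4.16 between T and B cells.

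Ly6c1 was highest in cells of the endothelial gate, at 2552 CPM (46 UMIs, 1868 to 3404) in labelled liver TIL and 383.9 CPM (6 UMIs, 140.9 to 835.6) in labelled heart TIL, from 21 and 20 cells. These cells also held markers of other classes. In labelled liver TIL neutrophil markers were at 7379 CPM, stromal markers at 3717 and the 6 endothelial markers outside the gate, all detected, at 2940, and in labelled heart TIL the values were 3519, 2175 and 3007 CPM. The part of such RNA in the result was not tested. Stromal cells of labelled liver TIL held 612 CPM. All immune classes were between 0 and 53.92 CPM, and in labelled liver TIL, where endothelial cells were highest, they ran from 0 in NK and Chil3-gated cells to 51.39 in Csf3r-gated cells. The difference of endothelial and stromal cells was a log2 of 1.52 ± 0.47 and did not pass (adjusted p = 0.123). It passed with RLE scaling (2.01, adjusted p = 0.0243), with overlapping gates (1.67, 5.77e-06) and without liver PC (1.55, 0.0446). It rests on 1 library with stromal cells. By edgeR 0 of the 7 members passed here, with 1 at an unadjusted p under 0.05, and 1.14% of all genes passed, against 0 members and 0.421% of genes by DESeq2. Ly6a was also high in these cells, at 4735 and 5881 CPM in endothelial and 5419 CPM in stromal cells. In endothelial cells 57.14% (34.02 to 78.18, exact binomial) of labelled liver TIL and 20% of labelled heart TIL had a Ly6c1 UMI after thinning to 500 UMIs, against at most 3.448% of cells in any immune class.

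By value, Ly6a and Ly6i stood higher in TIL than in blood libraries in each of the 4 classes that could be compared. Ly6g stood lower in 3 of them, although few of these differences passed the test. The classes share libraries, 2 or 3 per group, and how many of all genes separate in this way was not counted. Over all cells kept, Ly6a was also higher in TIL, at 1970 to 3882 CPM against 633.8 to 1044 in blood. Ly6i was at 619.1 to 705.3 against 214.5 to 519.1 CPM, and Ly6g at 0 to 4.371 against 61.08 to 381.6. The 4 classes are therefore not independent observations of a difference. Poisson intervals of some libraries still overlapped for Ly6i in NK cells and for Ly6g in T and Chil3-gated cells. In NK cells Ly6g was at 0 in TIL, which allows up to 144.5 and 177.8 CPM, against 22.06 to 146.9 CPM in blood, so no difference was detectable. In T cells the blood level of Ly6a was 1473 CPM for heart, 1333 for kidney and 900.9 for liver recipients. It was 1789 in labelled heart TIL, 2719 in labelled liver TIL and 2964 in kidney TIL, so every TIL value lay above every blood value. PC libraries held 1961 CPM in T cells of liver and 5557 in those of kidney. The log2 difference of TIL and PBMC was 0.89 ± 0.36 (1.85-fold) and did not pass over all genes (adjusted p = 0.357). Ly6i was 49.82 to 202.1 CPM in T cells of blood and 405.9 to 484.3 in TIL, while liver PC, at 167.6, lay within the blood range and kidney PC held 1547 (log2 of TIL minus PBMC 1.74 ± 0.49, 3.33-fold, adjusted p = 0.214). With the organ as a block, since blood and graft of an organ come from the same recipients, Ly6i passed (log2 1.875, adjusted p = 0.00751, and 0.00187 with the labels of heart TIL and liver TIL exchanged), while Ly6a did not (0.0831). Without the block Ly6i also passed when no filter on low counts was used (adjusted p = 0.000167). Of all genes in T cells 9.14% passed with this block and 7.24% with the labels exchanged. The block leaves few libraries to measure the spread, with 3 TIL libraries in T cells and 2 in the other classes. In NK and Csf3r-gated cells kidney PBMC had no TIL partner in these fits. Of 6 members tested in T cells 0 passed by edgeR and 0 by DESeq2, with 3 at an unadjusted p under 0.05, and 0.0756% of 5293 genes passed by edgeR and 2.55% by DESeq2.

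The same order held in the other classes. In NK cells Ly6a was 416.2, 286.8 and 353.1 CPM in blood of heart, kidney and liver recipients, and 1445 and 1304 in labelled heart and liver TIL (log2 1.95 ± 0.32, 3.86-fold, adjusted p = 0.058). With the organ block this gave an adjusted p of 0.000988, or 0.179 with the labels exchanged, where 9.02% and 0.258% of all genes passed. Of 4 members tested in NK cells 0 passed by edgeR, 2 were at an unadjusted p under 0.05, and 0.387% of 776 genes passed. By DESeq2 Ly6a passed (adjusted p = 0.00674), as did 2.32% of the genes, and by edgeR Ly6a passed with RLE scaling (0.048), with overlapping gates (0.0289) and without kidney PBMC (0.0485). In Csf3r-gated cells Ly6a was 497.5, 550.7 and 558.6 CPM in blood and 1677 and 2860 in TIL. This was a log2 of 1.75 ± 0.40 (3.36-fold, adjusted p = 0.0321). The call was lost without any 1 of the 5 libraries that entered, with adjusted p from 0.0535 without heart PBMC to 0.575 without labelled liver TIL, and also without a filter on low counts (0.0541) and with gates doubled (0.145). With the organ block the adjusted p was 0.0117, or 0.0671 with labels exchanged. In Chil3-gated cells it was 595.2 and 471.1 CPM in blood and 1790 and 2131 in TIL (1.58 ± 0.43, adjusted p = 0.0855, and 0.0105 with the organ block or 0.094 with labels exchanged). Ly6i followed Ly6a. It was 55.15 to 244.8 CPM in NK cells of blood and 529.9 and 592.6 in TIL, 173 and 499.2 against 975.4 and 1004 CPM in Chil3-gated cells, and 209.7 to 572.5 against 942.1 and 1006 CPM in Csf3r-gated cells, and in none of these did it pass by edgeR (adjusted p = 0.378, 0.329 and 0.25) or DESeq2 (0.36, 0.579 and 0.329). Without heart PBMC, which leaves liver PBMC alone as blood, the log2 of Ly6i in Chil3-gated cells was 2.38. In B cells, which numbered under 20 in each TIL library, Ly6a was 1259 and 1128 CPM in blood and 3312 CPM in liver PC. Ly6i ran the other way there, at 361.4 and 178.6 CPM in blood and 72.8 CPM (4 UMIs) in liver PC. In NK cells of liver PC Ly6a (759.6 CPM) lay above the blood values, while Ly6i (106.3 CPM) lay within them.

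Markers of other cells moved with these differences. Summed macrophage markers in T cells were 57.3 to 376.6 CPM in PBMC and 2007 and 2543 in labelled heart and liver TIL. In T cells of kidney TIL they were at 196.7 CPM, with neutrophil markers at 54.18 CPM. In T cells of kidney PC they were at 665.4 CPM. In Csf3r-gated cells macrophage markers were 285.8 to 771.5 CPM in blood and 2911 to 3854 in TIL. They were 77.21 to 429.8 against 1422 to 1879 CPM in NK cells and 705.4 to 1467 against 3683 to 3841 CPM in Chil3-gated cells. Their part in the results was not tested, nor was that of the neutrophil markers, which were higher in blood.

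Ly6c2 and Ly6e lay lower in TIL than in blood without overlap in Chil3-gated and Csf3r-gated cells. How many of all genes separate in this way was not counted, and Ly6c2 in NK cells was lower by value only, within counting error. By edgeR none of these differences passed, while by DESeq2 Ly6c2 in Csf3r-gated cells did (log2 -1.29, adjusted p = 0.0357) and the others did not (adjusted p from 0.114 to 0.988). Ly6c2 in T cells was 2119 to 2627 CPM in blood and 1132, 1195 and 2263 CPM in labelled heart TIL, labelled liver TIL and kidney TIL (log2 -0.79 ± 0.37, adjusted p = 0.414), with overlap through kidney TIL. In NK cells it was 728 to 1105 against 529.9 and 711.1 CPM (-0.51 ± 0.39, adjusted p = 0.655). The 711.1 CPM of labelled liver TIL came from 12 UMIs (367.4 to 1242). It was not told apart from the 728 CPM of kidney PBMC (563 to 926.2). In Csf3r-gated cells it was 1996 to 3209 against 1078 and 1393 CPM (-1.30 ± 0.43, adjusted p = 0.0834). In Chil3-gated cells it was 3451 and 3662 against 2165 and 1816 CPM, while liver PC held 4398 (-1.11 ± 0.42, adjusted p = 0.218). Without liver PBMC, which leaves heart PBMC alone as blood, the log2 was -1.29. Ly6e in Csf3r-gated cells was 3079 to 4396 CPM in blood and 2312 and 2369 CPM in TIL (-1.03 ± 0.42, adjusted p = 0.137), and in Chil3-gated cells 4174 and 4501 against 3017 and 3511 CPM (-0.69 ± 0.41, adjusted p = 0.481).

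Ly6d was lower in Chil3-gated cells of TIL, at 19.54 and 15.01 CPM against 131 and 143.5 in blood (log2 -3.11 ± 0.50, adjusted p = 0.0118). By edgeR, as by DESeq2, it was the only 1 of 6 members to pass there, where by edgeR 2.59% of 5290 genes did, and it was lost without labelled heart TIL (adjusted p = 0.659) and with gates doubled (log2 -2.90, adjusted p = 0.0692). With the organ block Ly6g (log2 -5.22, adjusted p = 8.39e-10), Ly6a and Ly6i (1.44, adjusted p = 0.0266) passed as well, while 8.6% of all genes did. With labels exchanged 2.78% did, and of these 3 only Ly6g (0.00469) still passed, against 0.094 for Ly6a and 0.212 for Ly6i. These fits held 2 blood and 2 TIL libraries, so the block left little to measure the spread of a gene. Ly6g rested on 2 UMIs in each TIL library, against 226 in heart PBMC and 45 in liver PBMC. Its fitted log2 therefore depends on the prior count of the fit. Over all alternatives run, some of which leave only 1 library of blood or of TIL, Ly6a passed in 5 of 14 and Ly6g in 7 of 14. In Csf3r-gated cells Ly6g passed along with Ly6a. Its 2 UMIs in TIL against 1191 in blood gave a ratio of blood to TIL of 39.1 (exact 95% interval 10.8 to 323), and the fitted log2 was -5.46 ± 0.98 (adjusted p = 0.0167). This fitted value depends on the prior count of the fit, and Ly6g entered the test through its blood counts. The call was lost without labelled liver TIL (adjusted p = 0.0916) and, with liver PC at 122 CPM counted with TIL, the log2 was -2.66 (adjusted p = 0.0518). By edgeR these 2 of 6 members passed, with 5 at an unadjusted p under 0.05, against 8.76% of 2556 genes. By DESeq2 4 passed, with Ly6c2 and Ly6d (log2 -2.66, adjusted p = 0.0448) added, against 10.1% of the genes. The block also gave Ly6d a call in Csf3r-gated cells (-3.20, adjusted p = 0.00182) and in T cells (-2.01, adjusted p = 0.00711), both beside the lower neutrophil markers of TIL. In Csf3r-gated cells 30.4% of all genes passed with the block and 10.7% with labels exchanged.

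**Figure D5:**
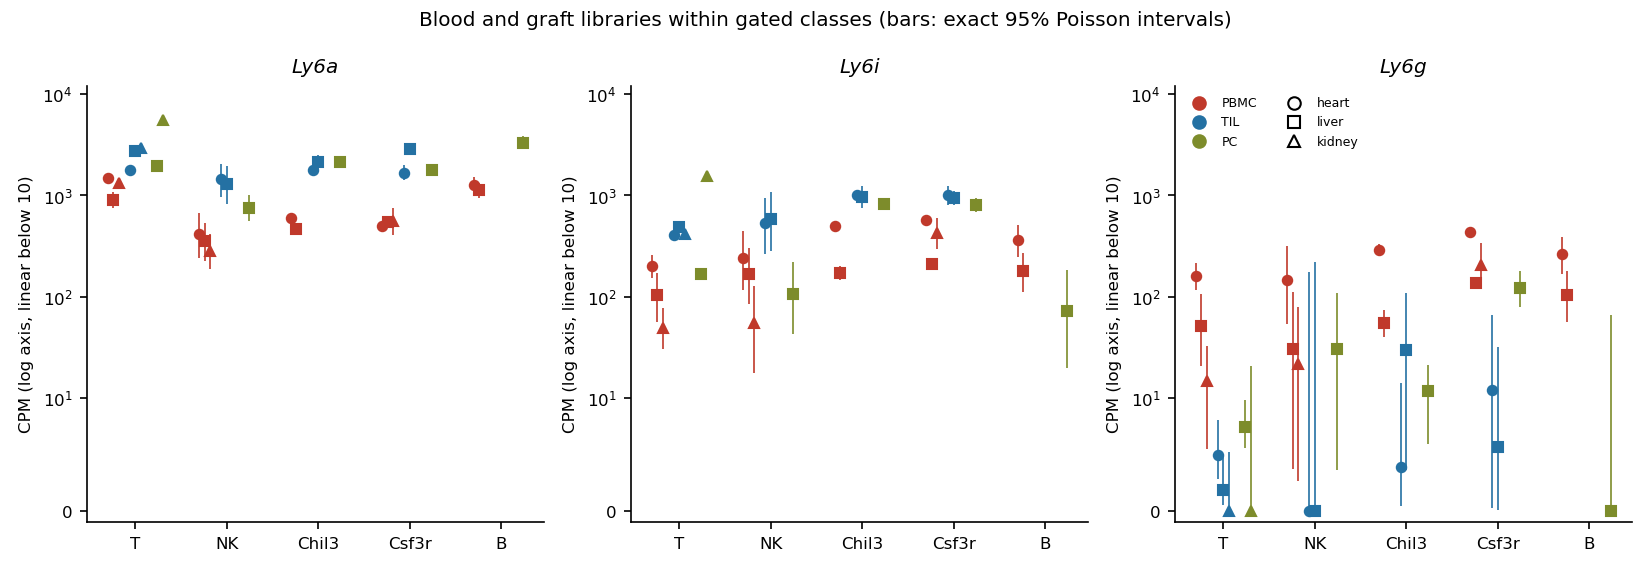
CPM of Ly6a, Ly6i and Ly6g (vertical axis, log scale, linear below 10) in 5 gated classes, with a point per library, exact 95% Poisson intervals, colours for the compartment and shapes for the organ by label. In T, NK, Chil3-gated and Csf3r-gated cells every TIL value of Ly6a and Ly6i lies above every PBMC value. Ly6g lies below in T, Chil3-gated and Csf3r-gated cells, and its 0 UMIs in NK cells of TIL have intervals that reach over the blood values. Intervals of some libraries also overlap for Ly6i in NK cells and for Ly6g in T and Chil3-gated cells. How many of all genes separate in this way was not counted.

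Among C1q-gated cells those of the kidney graft held the highest Ly6a and Ly6i. C1q-gated cells were at 8007 CPM of Ly6a in kidney PC and 7524 in kidney TIL, against 2164 to 4173 in the 3 libraries of the other organs. For Ly6i they were at 2696 and 1639 CPM against 627.1 to 790.1. The classes compared differ in makeup: macrophage markers were 1968 CPM in kidney PC, below its 2265 CPM of T cell markers, and 2225 in kidney TIL, against 6229 to 8540 elsewhere. The T cells of kidney PC likewise held the highest values of any T cells, 5557 CPM of Ly6a and 1547 of Ly6i. Over all cells kept, kidney PC was also the highest library for both, at 6192 and 1520 CPM. In T cells Ly6i of kidney TIL (419.1) lay below that of labelled liver TIL (484.3). These C1q-gated values came from 58 and 126 cells, and with 1 library per organ and compartment no test between organs was made. All 58 C1q-gated cells of kidney PC had an Ly6a UMI after thinning (100%), as did 99.21% of those of kidney TIL and 65.82% to 84.82% elsewhere. In T cells the share with an Ly6a UMI was 31.51% to 45.42% in blood, 59.25% to 73.93% in TIL, 61.44% in liver PC and 89.05% in kidney PC. Without thinning these were 47.26% to 66.55%, 76.19% to 87.27%, 91.92% and 93.8%, so liver PC, the deepest library, moved most. The same cells had an Ly6g UMI in 0% to 0.2337% of TIL and 1.553% to 9.155% of blood T cells.

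The genes whose levels were most like each member were taken over the 36 sums per class and library, among 7880 genes, by Pearson correlation of log2(CPM + 10). These values are descriptive, since the sums share libraries and depth. Nearest to Ly6d were the B cell genes H2-Ob (r = 0.939), Ms4a1 (0.922) and Cd22 (0.921), and to Ly6g the neutrophil genes Mmp9 (0.942), Ceacam10 (0.929) and Stfa1 (0.917). Ly6a was nearest to Gbp2b (0.87), an interferon-inducible GTPase, Cxcl16 (0.838), a chemokine, and Mt1 (0.83), a metallothionein. Ly6i was nearest to Pkm (0.81), a glycolytic enzyme, Batf2 (0.801) and Cxcl10 (0.798), an interferon-induced chemokine, and its closest member was Ly6a (0.574). For Ly6e the nearest were Spi1 (0.856), the myeloid and B cell factor PU.1, Napsa (0.768) and AB124611 (0.765), for Ly6c1 Tnfrsf12a (0.853), Tm4sf1 (0.847) and Serpinh1 (0.847), and for Ly6c2 Ramp1 (0.718), Rogdi (0.714) and Coro1a (0.681).

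Of 32 other genes of the Ly6 and uPAR family listed, 20 had a row in the tables and 5 reached 20 CPM in some class in at least 2 libraries. Gpihbp1, which carries lipoprotein lipase across capillary endothelium, was at 2815 CPM in endothelial cells of labelled heart TIL and 776.7 in those of labelled liver TIL, 0 in stromal cells and at most 48.18 in the immune classes. Cd59a, an inhibitor of complement, was at 383.9 and 111 CPM in the same endothelial cells and at 11.13 CPM in stromal cells. Plaur, the urokinase receptor, was at 119.8 to 251.2 CPM in Csf3r-gated and 82.45 to 300.1 CPM in Chil3-gated cells, and at 255.9 and 277.4 CPM in endothelial and 133.5 CPM in stromal cells. Cd177, a neutrophil surface protein, was at 11.42 to 103.8 and 13.68 to 121.9 CPM in Csf3r-gated and Chil3-gated cells. Ly6k stayed at or below 48.18 CPM, a value that came from 1 UMI in NK cells.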

How the data were processed

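Whole-number counts of UMIs per gene and barcode were deposited by the authors, 10000 barcodes per library. Per the labels and the study's methods, the authors discarded reads with a base quality under 10 in the barcode, aligned with STAR to GRCm38, counted on a GENCODE annotation (release not given in the sources used here), removed reads with several alignments and merged UMIs that differed by 1 base. Cells of at least 500 UMIs were gated, cells of exactly 1 gate were summed per class and library with at least 20 cells, and sums were given as CPM of the class. Intervals are exact 95% Poisson or binomial and cover counting error only. A count of 0 allows up to 3 counts. Doublets were not called.

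Sums were tested with edgeR's quasi-likelihood test (edgeR 4.0.16, limma 3.58.1, R 4.3.3) after TMM scaling and a filter on low counts, with Benjamini-Hochberg adjustment over all genes tested and a threshold of 0.05. DESeq2 1.42.0 was an alternative. Class contrasts had the library as a block, and TIL were compared with PBMC without a block, with the organ as a block as an alternative, since blood and graft of an organ share recipients. Tables were handled in Python 3.11.15 (numpy 2.4.6, scipy 1.17.1, pandas 2.3.3, matplotlib 3.10.9). Other alternatives were the scaling, no filter, at least 1000 UMIs, overlapping or doubled gates, at least 50 cells, barcodes shared between libraries left out, each library left out, and PC counted with TIL. On simulated counts with 200 genes changed, a log2 of 2 was recovered for 84.5% of them between Chil3-gated and C1q-gated cells, 91.5% for T cells of TIL and PBMC and 81.5% for Csf3r-gated cells, and a log2 of 1 for 6.5%, 18% and 1%. The simulation assumed a dispersion of 0.1, changed only genes with high counts and gave all other classes and libraries the same mean. These shares therefore do not give the power of the tests on the real counts or for members with low counts.

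All 7 members were named in every comparison. Of 32 other family genes, those at 20 CPM or more in a class in at least 2 libraries were named, and for each member the 3 genes of highest correlation among genes with at least 200 UMIs. The members and lists were chosen with earlier results of these data known.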

Additional observations from a re-analysis of the deposited data

How the results depend on the processing

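Of 19 member differences called, 9 passed under every alternative run: Ly6c2 in 4 class contrasts, Ly6g between Csf3r-gated and Chil3-gated cells, Ly6e and Ly6i between Chil3-gated and T cells, Ly6d between T and B cells and Ly6a between NK and T cells. The other 10 were lost under at least 1, and of 50 not called 16 passed under at least 1. Ly6d between Chil3-gated and T cells turned to a log2 of -0.18 with gates doubled. Of the medians per gene and class, 25 moved and 262 did not under other gates or cells. The causes were not tested. In the simulation, with its assumed dispersion, changes of a log2 of 1 were seldom recovered.

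Counts of genes called moved as follows. Between Chil3-gated and C1q-gated cells 291 became 144 with DESeq2, 134 with overlapping gates and 604 with gates doubled. Between Csf3r-gated and Chil3-gated cells 932 became 388 with overlapping gates and 1911 with gates doubled. Between T and B cells 488 became 194 from 1000 UMIs and 267 with gates doubled. Between NK and T cells 234 became 376 without a filter, 104 from 1000 UMIs and 91 from 50 cells. Between endothelial and stromal cells 68 became 25 with DESeq2 and 252 with overlapping gates. Between CD8 and CD4 T cells 37 became 21 with DESeq2 and 63 without a filter.

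Between TIL and PBMC, the 4 genes of T cells became 135 with DESeq2, 458 without a filter, 2 from 1000 UMIs, 2 with gates doubled, 484 with the organ block, 383 with that block and labels exchanged, and 32 with PC. The 3 of NK cells became 7 with RLE scaling, 18 with DESeq2, 45 without a filter, 11 with overlapping gates, 70 with the organ block and 6 with PC. The 137 of Chil3-gated cells became 429 without a filter, 822 with overlapping gates, 48 with gates doubled, 455 with the organ block and 437 with PC. The 224 of Csf3r-gated cells became 482 without a filter, 461 with overlapping gates, 16 with gates doubled and 778 with the organ block.

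With 1 library left out, counts ran from 136 to 327 (Chil3-gated and C1q-gated), 440 to 935 (Csf3r-gated and Chil3-gated), 1684 to 2624 (Chil3-gated and T), 246 to 500 (T and B), 166 to 287 (NK and T), 38 to 90 (endothelial and stromal) and 18 to 27 (CD8 and CD4). Between TIL and PBMC they ran from 0 to 34 in T cells, 0 to 11 in NK cells, 0 to 427 in Chil3-gated and 35 to 531 in Csf3r-gated cells.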
